A study of Mus musculus with 9 samples.

Results

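The genes followed here are 10 of the 54532 in the deposited count table, taken as the rows whose Ensembl identifiers map to the symbols Pax7, Myf5, Myod1, Myog, Myf6, Mef2a, Mef2c, Mef2d, Mymk and Cdh15. They are the transcription factors that carry a muscle stem cell through differentiation, the MEF2 factors that act with them, a membrane protein of myoblast fusion and a cadherin of muscle precursors. The data are RNA-seq counts from 9 libraries of injured muscle of C57/BL6J mice, in which tibialis anterior muscles were damaged with barium chloride (BaCl2), a salt that kills muscle fibres, and then injected 3 times with PBS or with recombinant METRNL protein (rMETRNL), a cytokine released by immune cells. Young PBS (libraries 1, 2 and 3; 3 to 4 months of age by the study's methods) were the young controls, old PBS (libraries 2, 3 and 4; 24 to 26 months) were the old controls, and old rMETRNL (libraries 1, 2 and 3; 24 to 26 months) were old muscles that received the protein. No group was transgenic, every group was injured, and there was no uninjured group. Both the time and the material are uncertain, since the labels name digested muscle cells and a series note gives day 4 after injury, while whole muscle and day 8 are named elsewhere. The labels do not say that each library is 1 animal, and p-values then measure only the spread between these libraries.

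The comparisons ask how old injured muscle differed from young, and how rMETRNL moved old muscle. Library totals ran from 16238700 to 22522560 counts, and the genes followed here had between 52 and 18889 counts in a library. Marker genes of skeletal muscle fibres summed to between 51965 and 93759 CPM, counts scaled to library size, in each library, so fibre RNA was abundant in the material labelled as a cell suspension. The old PBS libraries stood apart in 2 ways that touch the results below. Their 3 libraries differed widely from each other, and all 3 held transcripts of brain and liver. The 5 brain markers summed to between 43.7 and 102 CPM in old PBS and to at most 0.944 CPM in the other 6 libraries, and the 4 liver markers to between 6.99 and 74.9 CPM against at most 0.214 CPM.

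Pax7 marks the satellite cell, the stem cell that lies on the muscle fibre. After injury satellite cells divide as myoblasts that carry Myf5 and Myod1, stop dividing and switch on Myog, fuse through myomaker (the product of Mymk), and mature into fibres that express Myf6, also called Mrf4. Myf5, Myod1, Myog and Myf6 form the MyoD family of basic helix-loop-helix factors, which bind DNA at E-boxes with the letters CANNTG, while MEF2 factors bind AT-rich sites and act together with them. In bulk RNA, fewer cells of a type and less RNA per cell cannot be told apart.

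Sequences upstream of the start sites show where such letters stand in 3 of the genes, chosen as the member of the MyoD family that varied most between old PBS libraries, its relative Myf5, and the gene that varied least. Each is 250 bases on the gene's own strand, 5′ to 3′, ending just before the start site of RefSeq on GRCm38.p6, with capitals for E-boxes and for the MEF2 motif with its last base left free.
Myog, chr1:134289754-134290003, plus strand: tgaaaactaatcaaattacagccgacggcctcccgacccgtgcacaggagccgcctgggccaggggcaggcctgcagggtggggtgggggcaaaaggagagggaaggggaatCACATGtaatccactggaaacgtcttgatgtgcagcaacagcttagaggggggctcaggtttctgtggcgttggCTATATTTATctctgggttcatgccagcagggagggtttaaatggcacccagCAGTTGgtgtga
Myf5, chr10:107486135-107486384, minus strand: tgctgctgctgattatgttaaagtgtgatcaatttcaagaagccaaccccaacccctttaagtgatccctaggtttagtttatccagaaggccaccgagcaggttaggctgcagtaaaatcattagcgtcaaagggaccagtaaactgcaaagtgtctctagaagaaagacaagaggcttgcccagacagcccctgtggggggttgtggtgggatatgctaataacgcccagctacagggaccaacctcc
Mef2d, chr3:88142122-88142371, plus strand: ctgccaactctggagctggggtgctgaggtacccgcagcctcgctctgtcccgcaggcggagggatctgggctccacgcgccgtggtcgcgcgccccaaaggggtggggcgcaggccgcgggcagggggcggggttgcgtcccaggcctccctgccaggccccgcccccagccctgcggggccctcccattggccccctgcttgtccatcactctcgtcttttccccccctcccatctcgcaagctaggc
The Myog window held 2 E-boxes, CACATG at 138 to 133 and CAGTTG at 12 to 7 bases upstream, and between them, at 64 to 55 bases, CTATATTTAT, a match to the freer MEF2 motif. The Myf5 and Mef2d windows held neither. An E-box, which reads alike on both strands in its fixed letters, was present in 66.2% of the 32851 promoter windows of the same length, and the freer MEF2 motif on either strand in 7.03%. The stricter 10-letter MEF2 motif stood in 2.92% of all windows and in none of those of the 7 genes with an entry, and the freer form was searched after that result was seen. Among the other entries, Cdh15 had 3 E-boxes, Mef2c had 2, 0 and 1 at its 3 starts, and Pax7 and Mef2a had none. The freer MEF2 motif was not particular to Myog. Mef2c also held it at its first start, as GTAATTTTAA at 146 to 137 bases upstream, and the other entries did not. Myod1, Myf6 and Mymk were not in the table. These matches are letters in a window and describe no measured binding.

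All 10 genes passed the filter on low counts and were tested in the 3 comparisons. None passed an adjusted p of 0.05 in edgeR's quasi-likelihood test. Between old PBS and young PBS 0 of the 10 were called, against 0.0643% of all 15560 genes tested. Among old muscles, with and without rMETRNL, 0 of 10 were called, against 0.108% of 15682 genes, and in old rMETRNL against young PBS 0 of 10, against 0% of 15396 genes. At an unadjusted p under 0.05 there was 1 member in each comparison, Myf6 in both comparisons with old PBS and Myog in the third, where 5.91%, 8.07% and 2.41% of all genes passed. DESeq2 called 0, 1 (Myf6) and 0 of the 10, beside 1.41%, 1.84% and 0% of the genes it tested. Old PBS libraries enter the first and the second comparison alike, so a library of that group that stands high or low moves both.

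**Figure D1:**
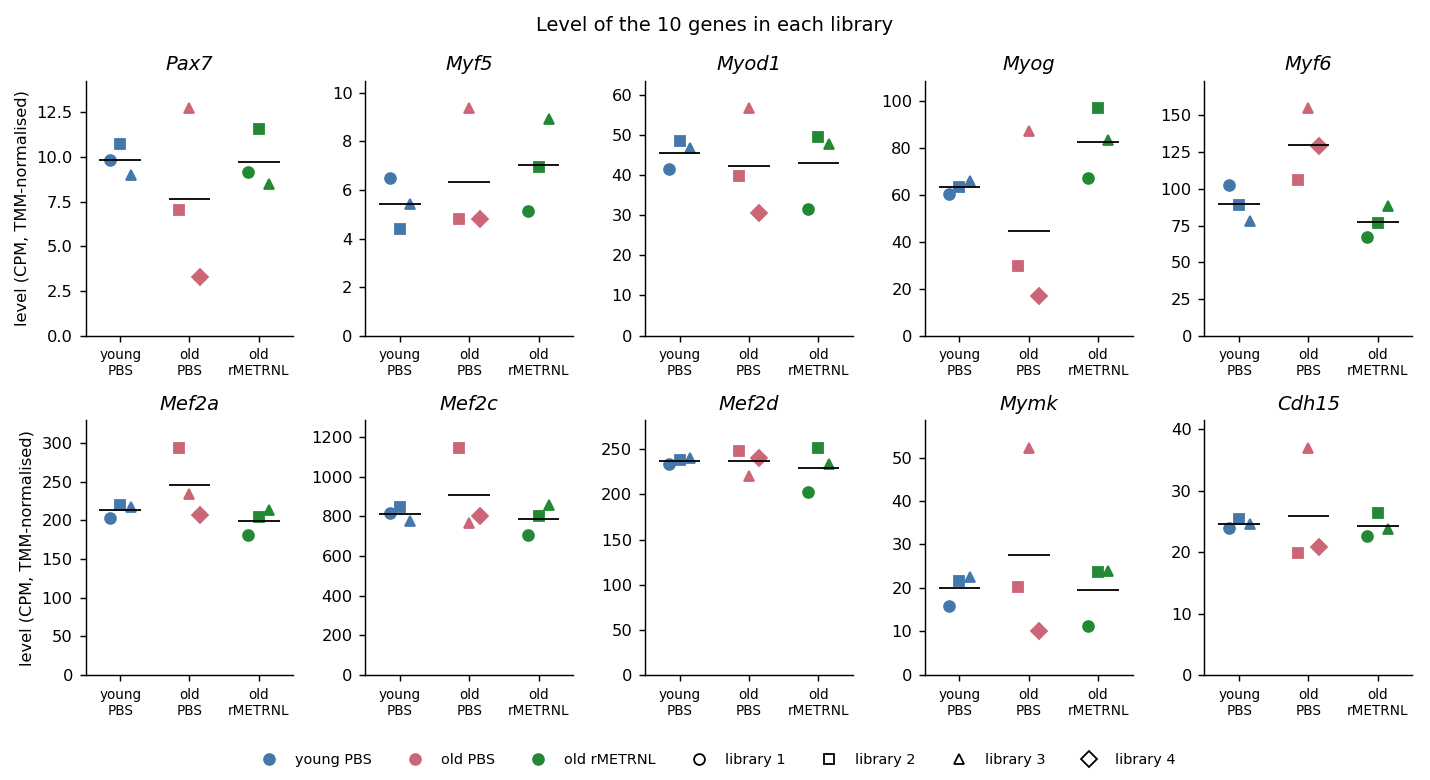
Level of each gene in each library, in CPM with TMM factors from all 9 libraries; each panel has its own linear axis from 0, points are libraries (shape gives the library number) and bars are group means. Old PBS 3 is the highest of the 9 libraries in 6 panels, and Myf6 is the 1 gene with every old PBS library above the other 6.

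Pax7 (ENSMUSG00000028736, chromosome 4, 139737062 to 139833528, minus strand; coordinates throughout are those of GENCODE M21 on GRCm38) is the paired-box factor of satellite cells. It stood at 9.83, 10.7 and 8.98 CPM in young PBS, at 7.01, 12.7 and 3.27 CPM in old PBS 2, 3 and 4, and at 9.17, 11.5 and 8.47 CPM in old rMETRNL. The old PBS libraries enclosed all the others, with old PBS 3 the highest and old PBS 4 the lowest of the 9. The log2 fold change was -0.35 ± 0.41 (SE, n = 3 against 3) in old PBS against young PBS, with adjusted p = 0.994 by edgeR. Old rMETRNL against old PBS gave 0.33 ± 0.41, with adjusted p = 0.859 by edgeR. Against young PBS, old rMETRNL differed by -0.02, and the 95% confidence interval ran from -0.39 to 0.35, so larger changes than these lie outside it.

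Myf5 (ENSMUSG00000000435, chromosome 10, 107482908 to 107486134, minus strand) and Myod1 (ENSMUSG00000009471, chromosome 7, 46376474 to 46379099, plus strand) are the factors of the dividing myoblast. Myf5 was at 6.47, 4.39 and 5.42 CPM in young PBS, at 4.78, 9.36 and 4.78 CPM in old PBS and at 5.15, 6.96 and 8.92 CPM in old rMETRNL. Myod1 was at 41.4, 48.3 and 46.6 CPM in young PBS, at 39.8, 56.6 and 30.6 CPM in old PBS and at 31.5, 49.5 and 47.7 CPM in old rMETRNL. For both genes old PBS 3 was the highest library and the groups overlapped. Their log2 fold changes lay between -0.10 and 0.37 over the 3 comparisons. The widest of these was that of Myf5 in old rMETRNL against young PBS, 0.37 ± 0.24, with adjusted p = 0.9996 by edgeR. For Myod1 in old rMETRNL against old PBS the estimate was 0.01, with a 95% confidence interval from -0.57 to 0.60.

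Myog (ENSMUSG00000026459, chromosome 1, 134289989 to 134292548, plus strand) encodes myogenin, the factor of terminal differentiation. It was at 60.5, 63.5 and 65.8 CPM in young PBS, at 29.7, 87.1 and 17.1 CPM in old PBS 2, 3 and 4, and at 67.2, 96.9 and 83.2 CPM in old rMETRNL. The groups differed in spread as well as in level. The young PBS libraries lay within 1.09-fold of each other and the old PBS libraries spread over 5.11-fold, with old PBS 2 and 4 below every other library and old PBS 3 above all but 1. Each old rMETRNL library was also above each young PBS library. Old rMETRNL against young PBS gave a log2 fold change of 0.38 ± 0.14 (1.30-fold, 95% confidence interval 1.06 to 1.60), with adjusted p = 0.9996 by edgeR. Myog was the 1 member of 10 with every old rMETRNL library above every young PBS library, where 3.92% of all genes tested had that order, and 0 of 10 had the opposite order, where 2.95% did. Old PBS against young PBS gave -0.50 ± 0.50, with adjusted p = 0.994 by edgeR. Old rMETRNL against old PBS gave 0.88 ± 0.50, with adjusted p = 0.691 by edgeR.

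The Myog result depended on old PBS 3 and on the filter. Without that library the Myog log2 fold change was -1.44 in old PBS against young PBS (adjusted p = 0.0273 by edgeR), and old rMETRNL exceeded old PBS by 1.82 (adjusted p = 0.00455 by edgeR). The same omission raised the genes called over the whole table from 10 to 401 and from 17 to 1560. Leaving out any other library gave no call for Myog. With all libraries kept and no filter on low counts, Myog was called in old rMETRNL against old PBS (adjusted p = 0.0140 by edgeR), and DESeq2 did not call it. Without old PBS 3, Pax7 also had a larger difference, -0.94 against young PBS (adjusted p = 0.149 by edgeR) and 0.92 in old rMETRNL against old PBS (adjusted p = 0.0932 by edgeR), and did not pass.

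Myf6 (ENSMUSG00000035923, chromosome 10, 107492853 to 107494737, minus strand) lies 6718 bases from Myf5 on the same strand and encodes the MyoD family member of mature fibres. Its level was 102.6, 89.1 and 78.2 CPM in young PBS, 106.3, 154.8 and 129.3 CPM in old PBS 2, 3 and 4, and 67.0, 77.1 and 88.1 CPM in old rMETRNL. Every old PBS library was above all 6 others, by a narrow margin between old PBS 2 and young PBS 1, and young PBS and old rMETRNL overlapped. The neighbouring Myf5 did not share this order. In old PBS against young PBS the log2 fold change was 0.53 ± 0.20 (1.44-fold), with adjusted p = 0.725 by edgeR. Myf6 was the 1 member of 10 with every old PBS library above every young PBS library, against 5.28% of all genes, and 0 of 10 had every one below, against 5.25%. Between old rMETRNL and old PBS it was -0.75 ± 0.20 (0.593-fold, 95% confidence interval 0.435 to 0.808), with adjusted p = 0.278 by edgeR. It was also the 1 member of 10 with every old rMETRNL library below every old PBS library, against 5.69% of all genes, and 0 of 10 had every one above, against 6.95%. DESeq2 gave adjusted p = 0.0302 for this difference, and edgeR without the filter on low counts gave 0.0462, so the call depended on the tool and on the filter. Leaving out each library in turn kept the estimate between -0.88 and -0.61, with no call.

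**Figure D2:**
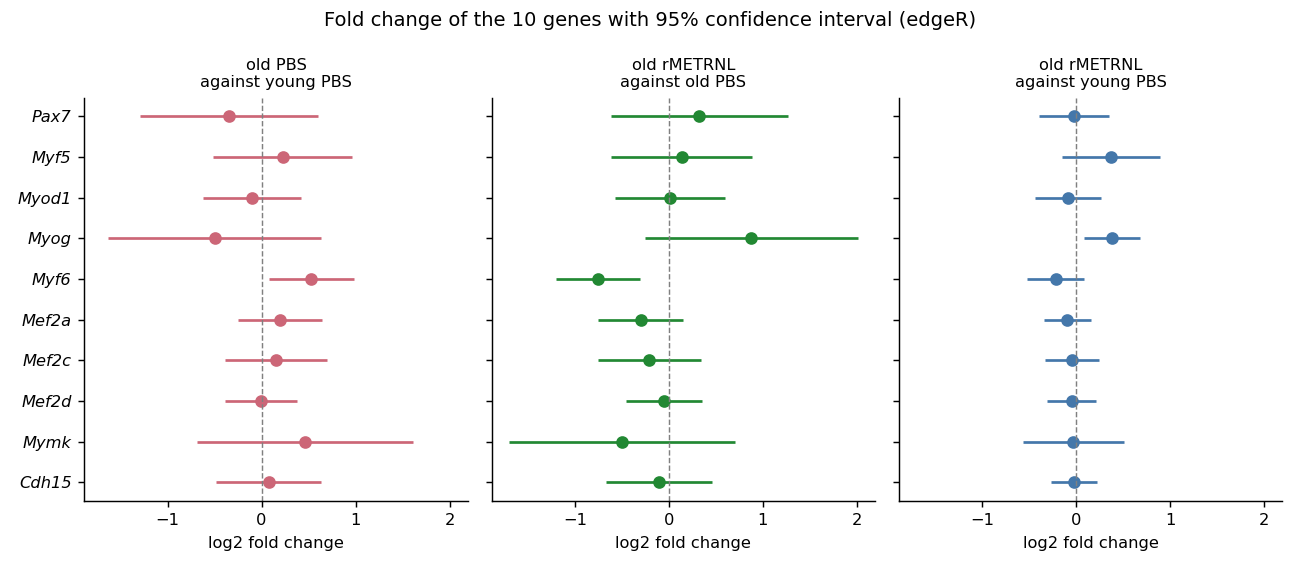
Log2 fold change of each gene in the 3 comparisons by edgeR, with points for the estimate, lines for the 95% confidence interval (n = 3 against 3) and a dashed line at 0. The intervals that exclude 0 are those of Myf6 wherever old PBS is compared and of Myog between old rMETRNL and young PBS, and none of the 3 passes the adjustment over all genes.

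Mef2a (ENSMUSG00000030557, chromosome 7, 67231163 to 67372858, minus strand), Mef2c (ENSMUSG00000005583, chromosome 13, 83504034 to 83667080, plus strand) and Mef2d (ENSMUSG00000001419, chromosome 3, 88142372 to 88172086, plus strand) encode MADS-box factors of differentiating muscle that are also present in neurons and other cells. Mef2a was at 202, 220 and 217 CPM in young PBS, at 294, 234 and 207 CPM in old PBS and at 180, 204 and 214 CPM in old rMETRNL. Mef2c was at 817, 846 and 776 CPM in young PBS, at 1147, 769 and 804 CPM in old PBS and at 706, 802 and 855 CPM in old rMETRNL. Mef2d was at 234, 238 and 240 CPM in young PBS, at 248, 221 and 241 CPM in old PBS and at 202, 252 and 233 CPM in old rMETRNL. Old PBS 2 was the highest library for Mef2a and Mef2c, and every pair of groups overlapped for all 3 genes. The largest of the 9 fold changes was that of Mef2a in old rMETRNL against old PBS, -0.30 ± 0.20, with adjusted p = 0.728 by edgeR. For Mef2d the 95% confidence intervals of the 3 comparisons lay between -0.46 and 0.38. Brain markers were at 96.0, 43.7 and 102 CPM in old PBS 2, 3 and 4, and their part in the MEF2 levels of old PBS was not tested. Exons of Mef2a share 302 bases with Lysmd4 on the opposite strand, and exons of Mef2d share 531 bases with the antisense 1700113A16Rik. The counts of these neighbours over all libraries were 2638 and 65, and the strand setting of the counting is not given in the sources used here.

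Mymk (ENSMUSG00000009214, chromosome 2, 27061636 to 27072179, minus strand) encodes myomaker, the membrane protein that myoblasts need for fusion. It was at 16.0, 21.6 and 22.6 CPM in young PBS, at 20.2, 52.3 and 10.01 CPM in old PBS and at 11.4, 23.7 and 23.9 CPM in old rMETRNL. Old PBS spread over 5.22-fold and enclosed every other library, and old rMETRNL 1 was close to old PBS 4 at the low end. The log2 fold change was 0.46 ± 0.50 in old PBS against young PBS, with adjusted p = 0.994 by edgeR, and its direction turned to -0.42 without old PBS 3. For old rMETRNL against old PBS it was -0.50 ± 0.53, with adjusted p = 0.824 by edgeR, and 0.38 without old PBS 3. Cdh15 (ENSMUSG00000031962, chromosome 8, 122847966 to 122867397, plus strand) encodes M-cadherin, an adhesion protein between satellite cell and fibre. It was at 23.99, 25.3 and 24.5 CPM in young PBS, at 19.8, 37.0 and 20.9 CPM in old PBS and at 22.6, 26.3 and 23.7 CPM in old rMETRNL. Old PBS 3 was again the highest library and the other 2 old PBS libraries the lowest of the 9. The Cdh15 estimates were between -0.11 and 0.08, and in old rMETRNL against young PBS the 95% confidence interval ran from -0.27 to 0.22.

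The genes differed widely in how far they spread within old PBS. The SD of log2 CPM within old PBS was 1.19 for Myog, 1.19 for Mymk and 0.96 for Pax7, against 0.36 for the median gene of the 16124 kept. Only 3.74% of genes had a larger SD there than Myog and 7.70% a larger SD than Pax7. Within young PBS, Myog had an SD of 0.06 and 92.0% of genes a larger one. Mef2d was among the least variable genes in both groups, with SDs of 0.02 in young PBS and 0.09 in old PBS, below those of 99.1% and 95.3% of genes. In old rMETRNL the SD of Mef2d was 0.16, near the 0.18 of the median gene and below that of 55.7% of genes. In all, 2 of the 10 were above the median gene's SD in young PBS, 6 in old PBS and 6 in old rMETRNL. Old PBS 3 was the highest of the 9 libraries for 6 of the 10 genes, where it was the highest for 15.2% of all genes. Old PBS 4 was the lowest for 4 of the 10 and old rMETRNL 1 for another 4, where they were the lowest for 25.7% and 9.78% of all genes. These shares describe the libraries and carry no test.

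**Figure D3:**
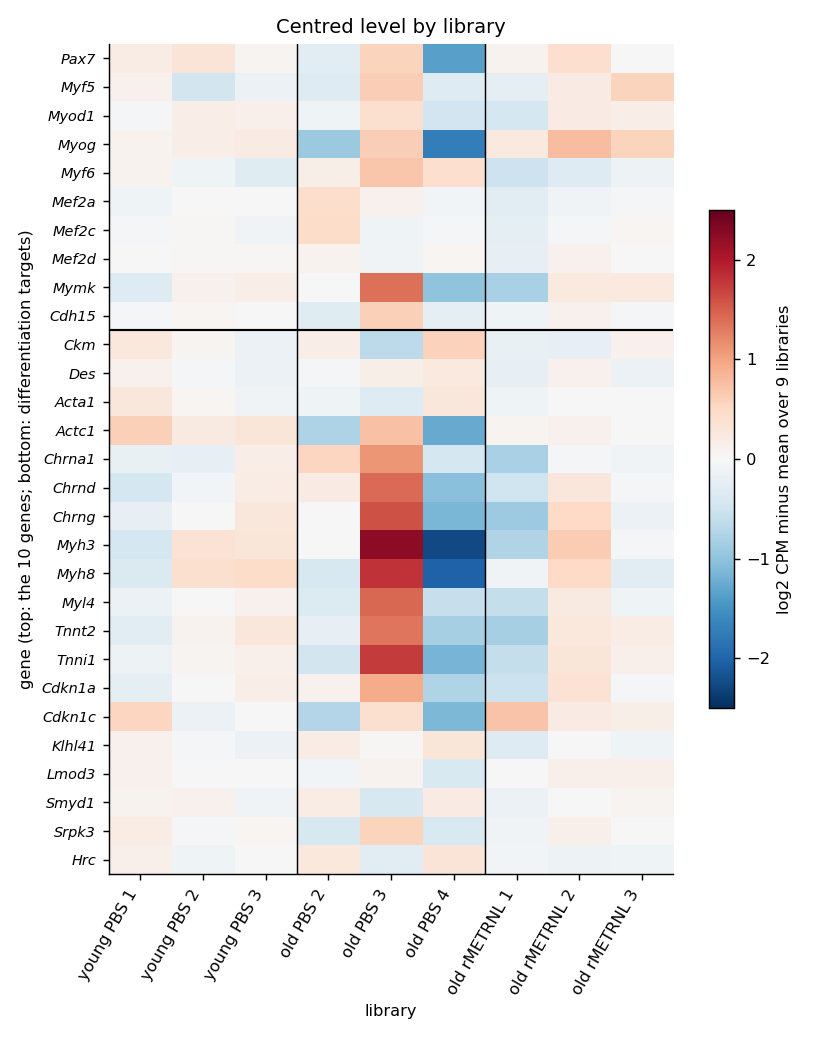
Log2 CPM of the 10 genes (above the line) and of 19 differentiation targets (below it) in each library, minus the gene's mean over the 9 libraries; red is above and blue below that mean, and vertical lines part the groups. Old PBS 3 and old PBS 4 are the highest and lowest of the 9 libraries for Mymk and for the embryonic and perinatal genes Myh3 and Myh8, old PBS 4 is the lowest and old rMETRNL 2 the highest for Myog, while the MEF2 rows are nearly pale throughout.

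Levels between genes were compared per kilobase of exon (CPM per kb), for which the long exon models of Mef2a and Mef2c, 14681 and 15715 bases over many transcripts, lower the value. In young PBS the order of the level was Myf6 at 71.2 ± 9.66 (SD, n = 3), Mef2c at 51.7 ± 2.23, Myog at 42.3 ± 1.78, Mef2d at 39.6 ± 0.510 and Myod1 at 24.4 ± 1.93 CPM per kb. Below them came Mef2a at 14.5 ± 0.631, Mymk at 13.3 ± 2.38, Cdh15 at 7.57 ± 0.208, Myf5 at 2.61 ± 0.501 and Pax7 at 1.68 ± 0.149 CPM per kb. Mef2a and Mymk were the neighbours whose libraries overlapped. Myf6 stayed the highest on average and Pax7 the lowest in the other groups. Myog ranked below Myf6 alone in old rMETRNL, at 55.1 ± 9.93 CPM per kb, and below Mef2c and Mef2d as well in old PBS, at 29.9 ± 25.0 CPM per kb.

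Within the MyoD family, Myog made up 27.5, 30.1 and 32.9% of the summed level per kb in young PBS, 15.6, 27.0 and 8.61% in old PBS and 38.3, 41.6 and 35.8% in old rMETRNL. The 3 groups did not overlap in this share, with old PBS lowest and old rMETRNL highest. Myf6 made up 55.2, 49.99 and 46.4% in young PBS, 65.9, 56.8 and 77.3% in old PBS and 45.2, 39.2 and 44.9% in old rMETRNL, the opposite order and again with no overlap. Shares within a family sum to a whole, so the Myf6 order follows in part from the Myog order. The ratio of Myog to Myf6 therefore separated the groups too, at 0.498 to 0.710 in young PBS, 0.111 to 0.475 in old PBS and 0.798 to 1.06 in old rMETRNL. The shares and this ratio restate the same contrast between 2 genes whose levels had already been seen, and carry no test. By level, Myf6 alone had every old PBS library above both other groups, and Myog in old PBS overlapped them. Old PBS 3, high for both genes, came close to young PBS in this ratio. The MEF2 factors kept similar shares throughout, with Mef2c at 47.4 to 54.3% of their summed level per kb, Mef2d at 30.9 to 39.3% and Mef2a at 13.0 to 15.7%.

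**Figure D4:**
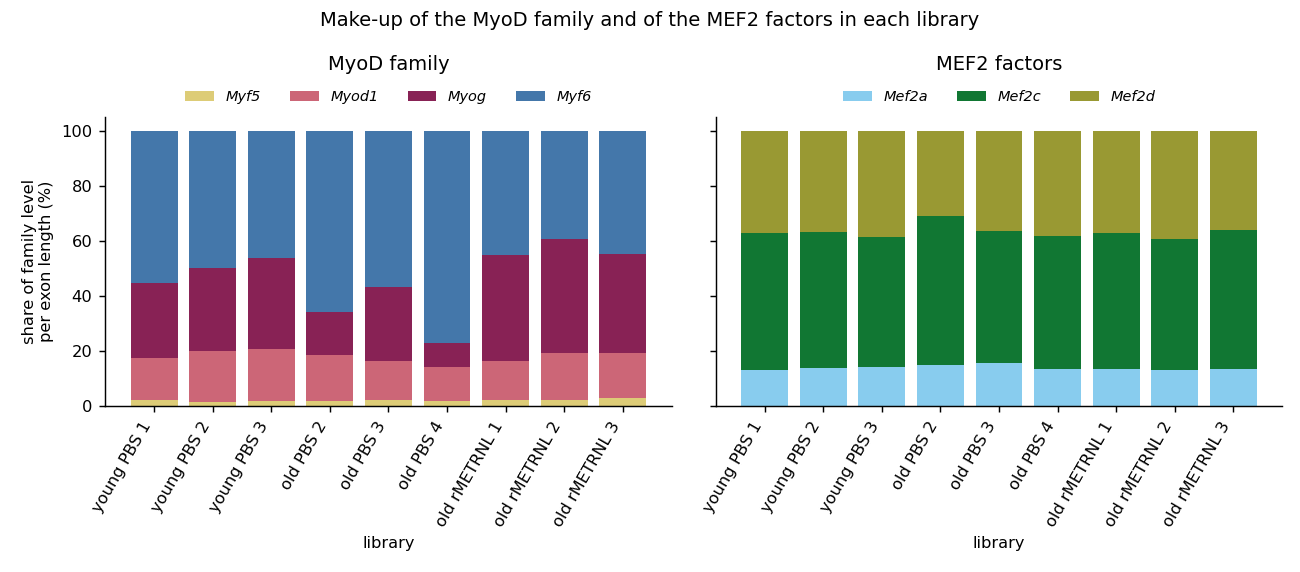
Share of each gene in the summed CPM per kb of the MyoD family (left) and of the MEF2 factors (right), in percent, with 1 stacked bar for each library. The Myog share is 8.61 to 27.0% in old PBS, 27.5 to 32.9% in young PBS and 35.8 to 41.6% in old rMETRNL, and the MEF2 bars differ little.

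Mymk and Myog were both spread over 5-fold in old PBS, yet their ratio was steady there. Per kb, Mymk stood at 0.671, 0.594 and 0.581 of Myog in old PBS 2, 3 and 4, at 0.261, 0.336 and 0.341 in young PBS, and at 0.167, 0.242 and 0.284 in old rMETRNL. Each old PBS library was above the other 6, whether its Myog was high or low, and young PBS and old rMETRNL overlapped. Of the 45 ratios between 2 members, 8 placed old PBS outside the range of the other 6 libraries, 4 of them with Myog and 3 with Myf6. The ratio of Myog to Myf6 is in both tallies. Those of Pax7 to Mymk and of Pax7 to Cdh15 hold neither gene, and Pax7 to Myf6 was also among the 8. The 8 are 17.8% of the ratios, against 6.20% of all pairs of the 15869 kept genes with counts in every library. But the 45 ratios share genes, and Myf6 was already seen to stand apart in old PBS by level. The ratios were chosen after the levels had been seen and are given without a test.

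The genes most alike in pattern were found by the root mean square difference of centred log2 CPM over the 9 libraries, among the 16124 genes kept. Nearest to Pax7 were Tcaf2 (0.146 log2 units), Nes (0.165), Gldn (0.166), Knl1 (0.168) and Pnmal2 (0.172), of which Nes encodes nestin, an intermediate filament of progenitor cells. Nearest to Myog were Dctd (0.171), Fgfr4 (0.185), Adamts7 (0.211), Col26a1 (0.216) and AW551984 (0.219), of which Fgfr4 encodes a fibroblast growth factor receptor of satellite cells and myoblasts. Nearest to Mymk were Dclk1 (0.0963), Tnnt2 (0.103), Chrnd (0.169), Gm28653 (0.171) and Zfp365 (0.173), of which Tnnt2 encodes a troponin T of embryonic and regenerating muscle and Chrnd the delta subunit of the acetylcholine receptor.

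Lists of related genes gave the surroundings of the pathway. None of 16 satellite cell genes, 19 partners and inhibitors of the MyoD family, 13 MEF2 regulators or 19 differentiation targets tested was called by edgeR or by DESeq2 in old PBS against young PBS. By edgeR, 1, 2, 1 and 0 of them had an unadjusted p under 0.05, where 5.91% of all genes did. The median log2 fold change was -0.21 for the satellite cell genes, -0.11 for the partners and inhibitors, 0.04 for the MEF2 regulators and 0.20 for the targets, against 0.01 over all genes. For old rMETRNL against old PBS the medians were 0.34, 0.10, -0.06 and -0.28, against -0.01 over all genes. Again neither tool called any of the 15, 19, 13 and 19 tested. At an unadjusted p under 0.05 by edgeR there were 0, 2, 2 and 0, where 8.07% of all genes passed. Marker lists of macrophages, endothelium and fibro/adipogenic progenitors had medians of the same signs as the satellite cell genes. They were -0.37, -0.40 and -0.21 in old PBS against young PBS, and 0.40, 0.46 and 0.58 in old rMETRNL against old PBS. Markers of muscle fibres, Schwann cells, brain and liver had the reverse signs, at 0.06, 0.90, 6.26 and 9.11, then -0.20, -0.84, -9.51 and -8.46. B cell markers were at 0.39 and 0.07. The part of other cell types in the satellite cell medians was not tested. Since both comparisons share old PBS, opposite signs of the medians are not separate evidence. Old rMETRNL against young PBS gave no call by either tool in any of the 5 lists, where neither tool called any gene at all, and its medians lay between -0.09 and 0.07.

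In the satellite cell list, Calcr, the calcitonin receptor of quiescent satellite cells, had a log2 fold change of -1.31 ± 0.51 in old PBS against young PBS, with adjusted p = 0.754 by edgeR, and Heyl, a Notch target, one of -0.70 ± 0.32, with adjusted p = 0.874 by edgeR. Under rMETRNL, against old PBS, these values were 0.93 ± 0.53 for Calcr and 0.63 ± 0.32 for Heyl, with adjusted p = 0.690 and 0.664 by edgeR. Calcr rested on 3 to 21 counts in a library. Id3, which blocks the MyoD family by taking up its E-protein partners, had values of -0.54 ± 0.21 and 0.53 ± 0.22 in these comparisons, and Twist1, another inhibitor, -0.67 ± 0.28 and 0.77 ± 0.30. Every old PBS library was below every young PBS library for both inhibitors, which is 2 of the list's 19 where 5.25% of all genes had that order. Every old rMETRNL library was above every old PBS library for the same 2, where 6.95% of all genes had that order, with adjusted p from 0.561 to 0.791 by edgeR. Twist1 is also expressed by fibroblasts. Markers of fibro/adipogenic progenitors summed to 2068 to 3057 CPM in old PBS, 3497 to 5193 CPM in young PBS and 3299 to 5059 CPM in old rMETRNL. Much of these sums was Col1a1, at 664 to 2114 CPM in old PBS and 2183 to 4136 CPM in young PBS. Of the 5 markers, 2 had a log2 fold change above 0 in old PBS against young PBS, and mean Dcn was 775 against 719 CPM. The part of these markers in the inhibitor levels was not tested. Among the MEF2 regulators, Hdac7, a class IIa histone deacetylase that represses MEF2, had values of -0.47 ± 0.20 and 0.52 ± 0.21, and Vgll2, a muscle cofactor, 0.30 ± 0.17 and -0.37 ± 0.15, with adjusted p from 0.552 to 0.959 by edgeR.

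The fusion list held the single call among the 5 lists. Of its 19 genes 17 were tested in both comparisons with old PBS, and Adgrb1 was called in old rMETRNL against old PBS (adjusted p = 0.0214 by edgeR) and had adjusted p = 0.0656 by edgeR in old PBS against young PBS, and DESeq2 called it in both. Adgrb1, which encodes an adhesion receptor best known from brain and named for fusion through the Elmo and Dock proteins, had 40, 46 and 63 counts in old PBS and 0 to 3 counts in each of the other libraries. Brain markers followed the same division between the libraries, and their part in the Adgrb1 result was not tested. Elmo1, the partner of Dock1, had a log2 fold change of -0.46 ± 0.21 in old PBS against young PBS and 0.52 ± 0.20 in old rMETRNL against old PBS, with adjusted p = 0.874 and 0.544 by edgeR. The median of the fusion list was 0.04 and 0.0027 in the 2 comparisons.

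The differentiation targets were divided in their order within old PBS. Of the 19, 13 were higher in old PBS 3 than in old PBS 2 and 4, 5 were lower there and 1 lay between, while of the 10 members 7 were higher, 2 lower and 1 between. The share of all genes in each order was not computed, so these counts describe the lists alone. Ckm, the creatine kinase of mature fibres, was among the targets lower in old PBS 3, at 0.16, -0.66 and 0.58 log2 units from its mean over the 9 libraries in old PBS 2, 3 and 4. The mean centred level of the 19 targets was -0.10, 0.73 and -0.60 log2 units in old PBS 2, 3 and 4, against -0.0010 to 0.095 in young PBS and -0.31 to 0.18 in old rMETRNL. Chrna1, the alpha subunit of the acetylcholine receptor, had a log2 fold change of 0.59 ± 0.34 in old PBS against young PBS and -0.81 ± 0.37 in old rMETRNL against old PBS, and Cdkn1c, a cyclin-dependent kinase inhibitor, -0.50 ± 0.38 and 0.72 ± 0.37, with adjusted p from 0.635 to 0.994 by edgeR. Myh3, embryonic myosin, was at 264, 1258 and 55.5 CPM in old PBS and between 158 and 413 CPM in the other libraries, and was named after its values were seen. The sum of mature fibre markers ran the other way within old PBS, at 93759, 51965 and 91649 CPM. Acta1, Ckm and Des are both fibre markers and differentiation targets, so the lists are not separate. Des did not follow the sum, at 3784, 4292 and 4634 CPM in old PBS 2, 3 and 4. Markers of macrophages summed there to 272, 415 and 239 CPM and of endothelium to 279, 331 and 205 CPM. Old PBS 3, with the highest Pax7, Myod1, Mymk and Myh3, thus had the lowest fibre marker sum of the 9 libraries. The part of this make-up in the spread of the 10 genes was not tested.

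**Figure D5:**
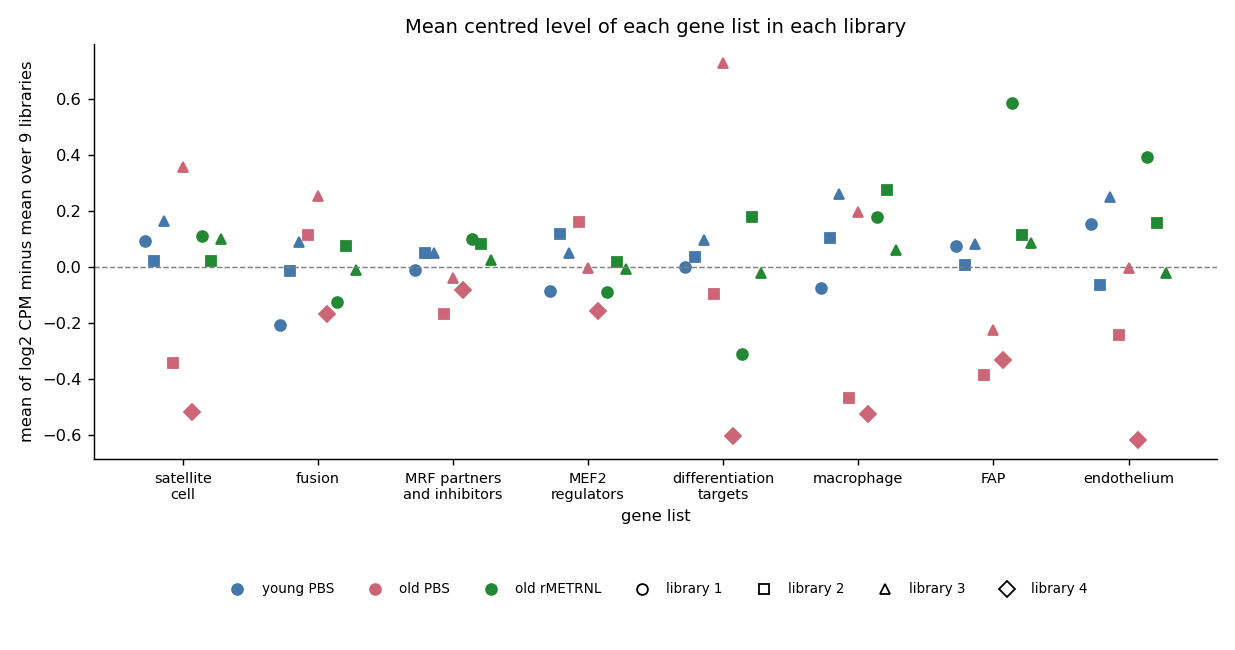
Mean over each list's genes of log2 CPM minus the gene's mean over the 9 libraries, with 1 point for each library. By this mean old PBS 3 is the highest library for satellite cell genes, fusion genes and differentiation targets. The fusion mean includes Adgrb1, at 2.28 in old PBS 3, and the fusion median was highest in young PBS 3 (0.107, against 0.097 in old PBS 3). Old PBS 4 is the lowest for satellite cell genes, MEF2 regulators, differentiation targets, macrophages and endothelium.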

How the data were processed

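RNA of injured mouse tibialis anterior muscle was measured in 9 libraries, 3 for each of young PBS, old PBS and old rMETRNL, grouped by the labels' titles. The authors deposited raw counts of reads per Ensembl gene, not normalized and with replicates apart. Per the labels, the submitters' processing notes name STAR, featureCounts and mm9, while the methods name DESeq2. Versions, annotation release and strand setting are not given in the sources used here. Of the 54532 identifiers 54409 are in GENCODE M21 on GRCm38, which supplied symbols, exon lengths and coordinates, so coordinates are those of this annotation and not of the authors' alignment. Totals of 16238700 to 22522560 counts set the precision, and counting error is only part of the spread between libraries.

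Each pair of groups (6 libraries) was fitted in R 4.3.3 by edgeR 4.0.16 (filterByExpr, TMM, glmQLFit, glmQLFTest, Benjamini-Hochberg over all genes tested, threshold 0.05). SEs come from the fold change and the F statistic, and 95% confidence intervals from the moderated degrees of freedom. Levels are CPM with TMM factors of all 9 libraries, and centred log2 levels used a prior count of 2. Alternatives were DESeq2 1.42.0 (size factors, and its Wald test), no filter, at least 10 counts in every library, all 9 libraries in one fit, a replicate block, and each library left out. Promoter windows are the 250 bases upstream of RefSeq starts. Same-numbered libraries had correlations of deviations from -0.316 to 0.412, and numbers were not taken to pair the libraries.

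Named were the 10 members, from each list the 2 genes of lowest p in each comparison with old PBS, and the 5 genes nearest in pattern to Pax7, Myog and Mymk. Members and lists were chosen with earlier results of these data known.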

Additional observations from a re-analysis of the deposited data

How the results depend on the processing

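With 3 libraries a group and a wide old PBS spread, changes smaller than the intervals given could not be resolved. Genes called in old PBS against young PBS numbered 10 by edgeR, 354 without the filter, 3 with at least 10 counts, 265 by DESeq2, 63 with all 9 libraries and 2 to 401 with a library left out. In old rMETRNL against old PBS they numbered 17, and 740, 1, 357, 71 and 3 to 1560 in the same order. In old rMETRNL against young PBS they numbered 0, with 132 without the filter and 0 to 1 with a library left out. Both highest counts, 401 and 1560, came without old PBS 3, and without the filter many more genes near 0 counts were tested. Members called rose from 0 to 2 (Myog and Myf6) without the filter and to 1 (Myf6) by DESeq2 in old rMETRNL against old PBS. Leaving out a library gave 0 to 1 (Myog, without old PBS 3) in each comparison with old PBS. With the replicate block, genes called numbered 11 and 65 in the comparisons with old PBS. In the comparison with 3 shared numbers the correlations were 0.0231, -0.0507 and -0.178, and no member was called under the block.

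Of the estimates of members under the settings that kept every library, 174 kept direction and call, 3 became calls and 3 turned, all near 0: Mef2d in old PBS against young PBS with DESeq2 size factors (0.0025), and with the replicate block Myod1 in that comparison (0.0024) and Mef2d in old rMETRNL against old PBS (0.044). With a library left out 149 kept both, 2 became calls and 29 turned. The estimates that turned ranged as follows. In old PBS against young PBS they were Pax7 from -0.94 to 0.013, Myf5 from -0.19 to 0.39, Myod1 from -0.37 to 0.086, Mef2c from -0.047 to 0.26, Mef2d from -0.039 to 0.038, Mymk from -0.42 to 0.86 and Cdh15 from -0.28 to 0.24. In old rMETRNL against old PBS they were Pax7 from -0.047 to 0.92, Myf5 from -0.077 to 0.55, Myod1 from -0.19 to 0.28, Mef2d from -0.12 to 0.033, Mymk from -0.91 to 0.38 and Cdh15 from -0.26 to 0.25. In old rMETRNL against young PBS they were Pax7 from -0.16 to 0.073, Myod1 from -0.20 to 0.097, Mef2c from -0.11 to 0.027, Mef2d from -0.12 to 0.032, Mymk from -0.20 to 0.24 and Cdh15 from -0.088 to 0.022. The cause was not tested, apart from the library left out.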
